A study of Aptenodytes patagonicus with 7 samples.

Results

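Ion channel genes were followed in biopsies of the pectoralis, the swimming muscle of the breast, of juvenile king penguins (Aptenodytes patagonicus) at the passage from land to sea. The sea-acclimated birds (SA) were 2 female juveniles and 1 male that already lived at sea. The never-immersed birds (NI) were 3 female juveniles and 1 male, still ashore and not yet exposed to the sea. Each bird was a separate animal and gave 1 biopsy and 1 Affymetrix chicken array. Because different birds were sampled at each stage, immersion, age and time of capture cannot be told apart. The channel genes were all genes of the array's chicken annotation whose single symbol begins with KCN (potassium), SCN and a digit (sodium), CACN (calcium) or CLCN (chloride). They were 104 of the 12920 genes with a single symbol, namely 70 potassium, 10 sodium, 17 calcium and 7 chloride channel genes. Each was read from 1 of its probe sets, the one with the highest mean over the 7 birds. A value is the log2 intensity of a single chicken probe, which may also capture penguin transcripts of a related gene, and this brightness cannot be set against that of another gene. Of the 104 symbols, 94 are also gene symbols in the king penguin RefSeq annotation. Among the 10 without a match by symbol are KCNJ12, CLCN5, KCNK7 and SCN1A, which are reported below.

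Ion channels are membrane proteins that let selected ions cross when voltage, a ligand or stretch opens them. In a skeletal muscle fibre a voltage-gated sodium channel carries the action potential, and a calcium channel of the transverse tubules serves as the voltage sensor that releases calcium from the store. Chloride and potassium channels bring the membrane back to rest and hold it there. Most families also have accessory subunits, which carry no current themselves but set how many pores reach the surface and how they open. Other members of the same families work chiefly in nerve, vessel wall, blood cells or intracellular vesicles, all of which a biopsy can hold.

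Every difference is SA minus NI as the sample labels name the birds. Over all probe sets this gave 154 higher and 240 lower calls in SA, whereas the study states 240 up-regulated and 154 down-regulated genes. The totals match with the directions exchanged, and which direction holds was not tested here. If the study's direction holds for these values, every sign given here, with each higher or lower in SA, would be turned. In the study qPCR gave the direction it states for most of the genes tested. No channel gene passed the limma test (adjusted p under 0.10) in either direction, where 1.55% of all 12920 genes did (0.58% higher and 0.967% lower in SA). At that rate 1.61 of 104 genes would be called, so that a count of 0 does not set the channel genes apart. At an unadjusted p under 0.05 there were 8 channel genes, or 7.69%, against 12.4% of all genes (5.79% with a positive and 6.66% with a negative difference). Of these 8, KCNIP1 and KCNK3 had a positive difference, and CLCN4, CACNA2D1, KCNN2, KCNJ15, SCN3B and CACNA2D2 a negative one. The groups did not overlap in 6 channel genes, or 5.77%, against 11.5% of all genes. The median log2 difference was 0.031 over the channel genes and 0.0028 over all genes, and 55.8% of channel genes against 50.6% of all genes had a positive sign. The median log2 differences of the classes were 0.052 for potassium, -0.087 for sodium, 0.045 for calcium and 0.017 for chloride channels. These counts and medians moved with single birds. The count at an unadjusted p under 0.05 was 14 without SA bird 1 and 5 without SA bird 2. The share of all genes at this p without these birds was not counted. Calls over all probe sets (adjusted p under 0.10) moved too, to 346 without SA bird 1 and 180 without SA bird 2, against 394 with all birds. The median over all channel genes was -0.018 without SA bird 2 and -0.012 without NI bird 2, and that of the calcium channels -0.051 and -0.069. The 95% interval of the difference lay within 0.5 log2 units of 0 in 62 of the 104 genes. It lay within 1 log2 unit, a 2-fold change, in 94. These intervals hold for probe intensity. As no background subtraction is mentioned, those of dim genes cannot leave out a 2-fold change in transcript. At the median standard error of the channel genes, 0.15, a log2 difference of 0.69 was needed to pass the threshold.

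**Figure D1:**
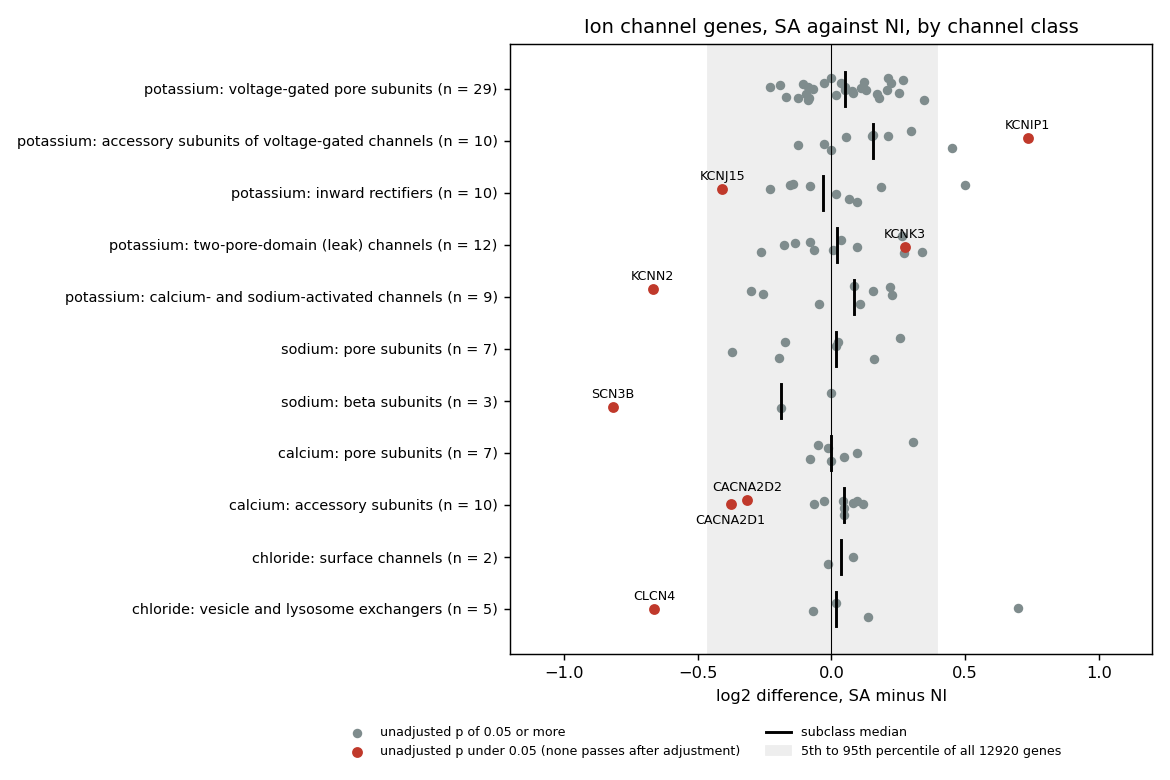
Log2 differences (SA minus NI, horizontal axis) of the 104 channel genes by subclass, with 1 point per gene, 3 SA and 4 NI birds, and the subclass median as a black bar. The 8 genes in red had an unadjusted p under 0.05 and none passed after adjustment. They run from -0.82 for SCN3B to 0.73 for KCNIP1, while the grey band holds the 5th to the 95th percentile of all genes.

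Of the channels known to set the excitability of the fibre, CACNA2D1, KCNN2 and KCNJ12 had the largest differences, -0.38, -0.67 and 0.50, while the sodium pore, the chloride channel and the voltage sensor lay closer to 0. SCN4A, the pore of the skeletal muscle sodium channel, had log2 intensities of 8.71, 8.81 and 8.76 in SA birds, against 8.77, 8.66, 8.42 and 8.55 in NI birds. Its log2 difference was 0.16 (standard error 0.12, 95% interval -0.10 to 0.42, limma adjusted p = 0.729), and NI bird 1 lay within the SA range. CLCN1, the chloride channel that gives resting muscle most of its chloride conductance, had 11.64, 11.92 and 11.80 in SA birds and 11.80, 11.64, 11.91 and 11.84 in NI birds. The ranges of the groups nearly coincided, and the difference of -0.012 had an interval of -0.28 to 0.26 (limma adjusted p = 0.988). CACNA1S, the voltage sensor of the transverse tubules, had 10.50, 10.94 and 10.40 in SA birds, against 10.88, 10.53, 10.58 and 10.78 in NI birds. Its difference was -0.081, with an interval of -0.44 to 0.27, and SA bird 2 held the highest value of all 7 birds. CACNG1, the gamma subunit of the same complex, had 11.08, 10.88 and 11.12 in SA birds, against 11.06, 11.17, 10.47 and 11.10 in NI birds. Its difference was 0.080, with an interval of -0.32 to 0.48, and NI bird 3 alone was low. For the probe sets used of SCN4A, CLCN1, CACNA1S and CACNG1 the interval leaves out a change in intensity as large as 2-fold. Other probe sets ran from -0.14 to 0.34 for SCN4A, -0.086 to 0.28 for CLCN1 and -0.27 to 0.011 for CACNA1S. KCNJ2, the inward rectifier that holds the resting potential, lay at -0.079 (interval -0.39 to 0.23). KCNMA1, the pore of the large-conductance channel opened by calcium and voltage, lay at 0.15 (interval -0.17 to 0.48). Its other probe sets ran from -0.31 to 0.21.

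KCNJ12, a related inward rectifier of muscle, had 9.15, 8.77 and 8.60 in SA birds, against 8.46, 8.47, 8.71 and 7.72 in NI birds. Its difference was 0.50 (standard error 0.23, limma adjusted p = 0.505), and NI bird 4 lay below every other bird of either group. Without NI bird 4 the difference was 0.29. KCNE3, an accessory subunit of voltage-gated potassium channels, lay at 0.30 (interval -0.045 to 0.64, limma adjusted p = 0.563), and at 0.17 without SA bird 2. The list of 18 fibre channels had 10 measured members, and the other 8 were not analysed here. None of the 10 passed the test, 5 had a positive and 5 a negative sign, and their median difference was 0.034. An unadjusted p under 0.05 was found for 2 of the 10, CACNA2D1 and KCNN2, where 12.4% of all genes had one. ACTA1, the actin of skeletal muscle, was at 15.27 in each of the 7 birds, the top of the scale of these values. Of 12 measured skeletal muscle fibre markers TNNC2, the fast troponin C, was lower in SA (-0.94, limma adjusted p = 0.0341) and none was higher.

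**Figure D2:**
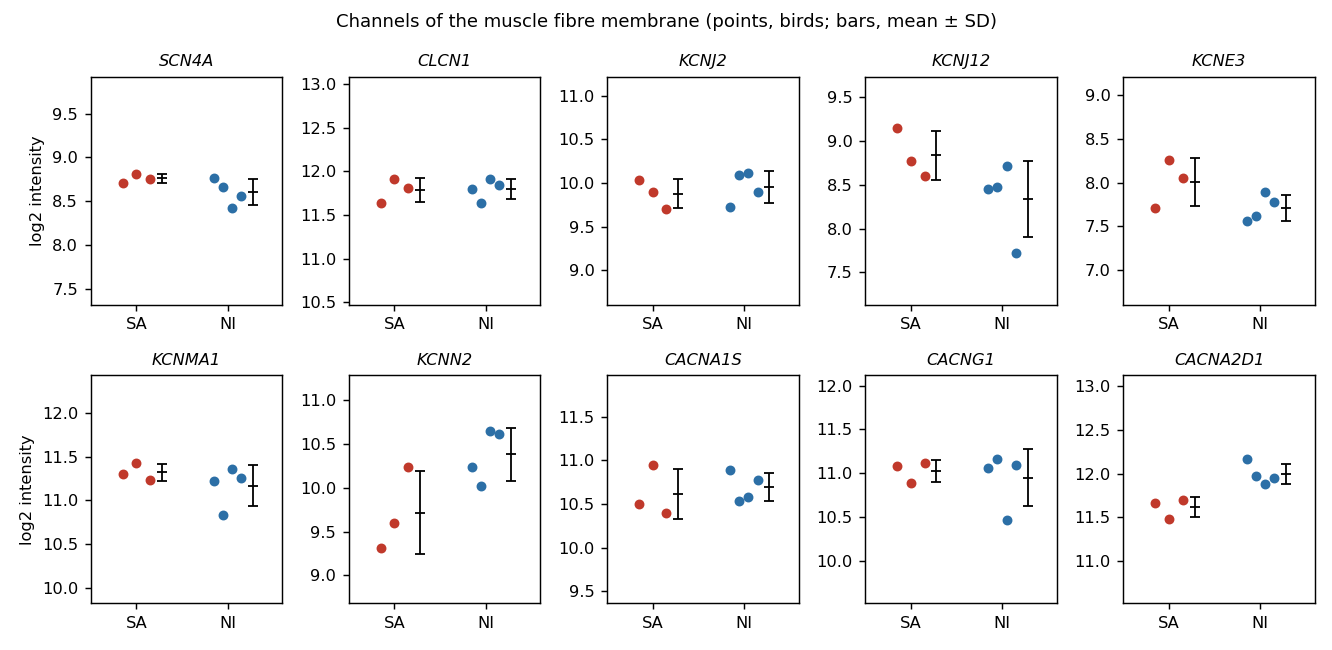
Log2 intensities (vertical axis) of 10 channel genes of the muscle fibre membrane, with 1 point per bird, SA (n = 3) in red left of NI (n = 4) in blue, and the mean ± SD as a bar. The groups overlap in 9 of the 10 genes, and CACNA2D1 is lower in every SA bird (11.48 to 11.70) than in any NI bird (11.89 to 12.16).

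Among the calcium channel genes CACNA2D1 and CACNA2D2 had the smallest p-values. Both are alpha2delta subunits, which carry the pore to the surface. CACNA2D1, the form of skeletal muscle, had 11.67, 11.48 and 11.70 in SA birds, against 12.16, 11.98, 11.89 and 11.95 in NI birds. The groups did not overlap. The log2 difference of -0.38 (standard error 0.12, interval -0.64 to -0.11) did not pass (limma adjusted p = 0.249). The other probe sets of CACNA2D1 lay at -0.47, -0.50 and -0.23, so that all 4 had a negative sign. CACNA2D2 had 7.48, 7.40 and 7.54 in SA birds, against 7.95, 7.97, 7.58 and 7.65 in NI birds. Its difference was -0.31 (limma adjusted p = 0.436). The groups did not overlap, though SA bird 3 and NI bird 3 differed by little. CACNA2D2 was dim, at percentile 18.8 of all probe sets by mean intensity, and had 1 probe set. CACNA2D3, the third gene of this kind, lay at 0.049 (interval -0.31 to 0.41). Of all 10 genes grouped by symbol as accessory subunits 6 had a positive sign, and their median was 0.045. CACNG2, CACNG3, CACNG4 and CACNG5 are among the 10, and whether they serve calcium channels in this muscle was not tested. The 7 pore subunits lay between -0.081 and 0.30. The highest was CACNA1H, a T-type pore that opens near the resting potential, with 10.08, 10.13 and 10.26 in SA birds and 9.88, 9.61, 10.12 and 9.81 in NI birds (difference 0.30, limma adjusted p = 0.484). Its other probe sets lay at 0.028 and -0.14. CACNA1E, an R-type pore of neurons, lay at 0.096 (interval -0.19 to 0.39).

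Among the chloride channel genes the largest differences belonged to vesicle exchangers. CLCN4, which trades chloride for protons in endosomes, had 8.98, 9.19 and 8.68 in SA birds, against 9.67, 9.87, 9.36 and 9.54 in NI birds. Every SA bird lay below every NI bird. The log2 difference of -0.66 (standard error 0.16, interval -1.03 to -0.30), 1.58-fold, gave the smallest adjusted p of all channel genes (limma adjusted p = 0.139). CLCN4 passed in 2 of its 17 alternatives, array weights among them (limma adjusted p = 0.0955). Its other probe sets lay at 0.33 and -0.085, and neither of them passed the test. CLCN5, the endosomal exchanger of the kidney tubule, had 10.07, 9.81 and 11.48 in SA birds and 9.92, 9.52, 9.99 and 9.60 in NI birds. Its difference of 0.70 (interval -0.08 to 1.48, limma adjusted p = 0.547) rested on SA bird 3, and without that bird it was 0.18. CLCN3, CLCN6 and CLCN7, exchangers of endosomes and lysosomes, lay at 0.14, 0.017 and -0.067. CLCN2, a surface channel of many tissues, lay at 0.082 (interval -0.28 to 0.45).

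The sodium channel genes were 7 pore and 3 beta subunits. SCN3B, a beta subunit best known from neurons and heart, had the lowest difference of all channel genes. Its values were 10.61, 9.93 and 11.51 in SA birds, against 11.76, 11.46, 11.04 and 11.74 in NI birds. SA bird 3 lay within the NI range, and the spread was 0.795 in SA and 0.334 in NI (SD, n = 3 and 4). The difference was -0.82 (standard error 0.33, interval -1.56 to -0.072, limma adjusted p = 0.416). It was -0.44 without SA bird 2 and -1.23 without SA bird 3, and did not pass in either case. The other probe sets of SCN3B lay at 0.49, with an interval of 0.035 to 0.95, and at -0.00083. SCN2B, a beta subunit of neurons, lay at -0.19 and SCN4B, found with SCN4A in muscle, at -0.00044. SCN8A, the pore of the nodes of Ranvier, had 10.36, 10.94 and 11.09 in SA birds, against 10.66, 11.61, 11.28 and 11.11 in NI birds (difference -0.37, interval -0.91 to 0.17, limma adjusted p = 0.683), and the difference was -0.15 without SA bird 1 and -0.22 without NI bird 2. SCN1A, a pore of neurons, lay at 0.25 (limma adjusted p = 0.555), and at 0.14 without SA bird 2. Of the 14 nerve and Schwann cell markers measured in these biopsies, MBP, the myelin basic protein, was lower in SA (-1.24, limma adjusted p = 0.0377), and none was higher. Of the 14 markers 8 had a negative sign, and their median was -0.089. Their summed level on the log2 scale was 13.49 to 13.53 in SA birds and 13.54 to 13.68 in NI birds, and its part in the sodium channel values was not tested. In bulk tissue fewer cells of a type and less RNA per cell cannot be told apart.

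**Figure D3:**
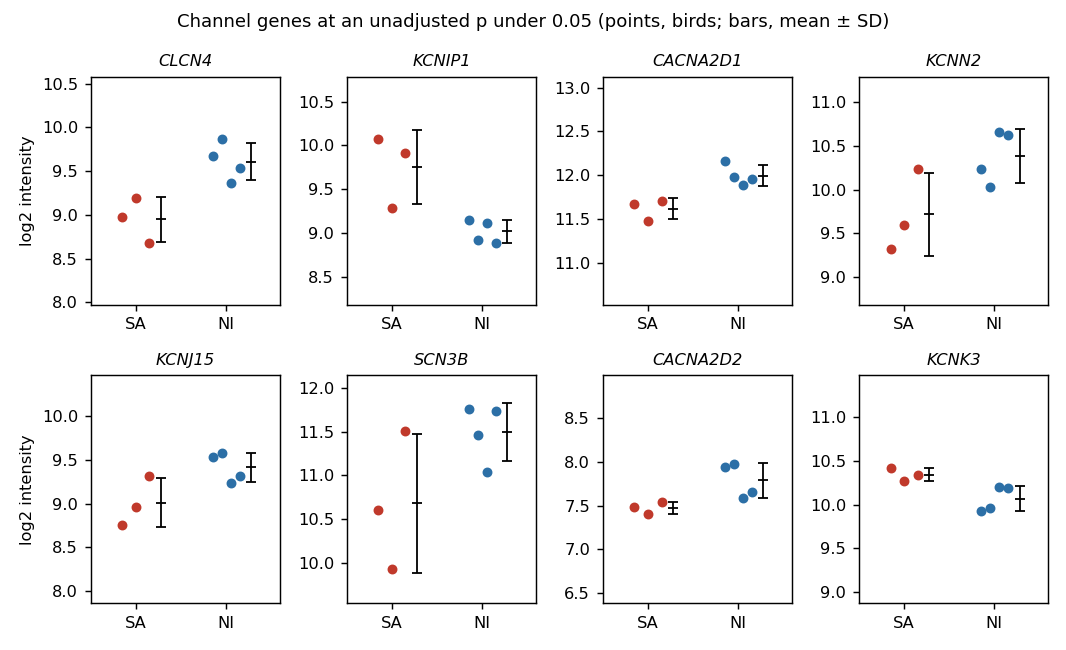
Log2 intensities (vertical axis) of the 8 channel genes with an unadjusted p under 0.05, with 1 point per bird, SA (n = 3) in red left of NI (n = 4) in blue, and the mean ± SD as a bar. CLCN4, KCNIP1, CACNA2D1, CACNA2D2 and KCNK3 do not overlap between the groups, and in SCN3B, KCNN2 and KCNJ15 SA bird 3 lies within the NI range.

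The 29 genes grouped as pore subunits of voltage-gated potassium channels lay between -0.23 and 0.35, and none had an unadjusted p under 0.05. Such pores repolarise the membrane after a spike, but the 29 also hold silent subunits such as KCNS2. The 95% interval was within a 2-fold change of intensity in all 29 of them, and within 0.5 log2 units of 0 in 22. Their mean intensities ran from 6.88 for KCNV1 to 11.08 for KCNS1, with KCNG4 at 7.30 and KCNH1 at 7.46. The lowest value of any probe set was 6.44. As no background subtraction is mentioned, the intervals of such dim genes cannot leave out a 2-fold change in transcript. KCNS2, a silent subunit that modifies other pores, had the smallest p of the 29, with a difference of -0.23 (limma adjusted p = 0.564). KCNQ5, a pore of the M-current family also found in skeletal muscle, lay at 0.25 (limma adjusted p = 0.579), and its other probe set at -0.16. Among the 10 accessory subunits KCNIP1, a calcium-binding partner of the KCND pores, had 10.07, 9.28 and 9.91 in SA birds, against 9.15, 8.92, 9.12 and 8.89 in NI birds. SA bird 2 was the lowest of its group and still above every NI bird. The difference of 0.73 (standard error 0.19, interval 0.32 to 1.15), 1.66-fold, did not pass (limma adjusted p = 0.150). Without SA bird 2 it was 0.97 and KCNIP1 passed (limma adjusted p = 0.0478). That adjusted p lay between 0.101 and 0.404 in the other 16 alternatives, so this call rests on leaving out 1 bird. The second probe set of KCNIP1 lay at 0.18. KCND2 and KCND3, 2 pores of that family, lay at 0.037 and -0.083.

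Of the 10 inward rectifiers 5 had a positive and 5 a negative sign. KCNJ15 had 8.76, 8.96 and 9.31 in SA birds, against 9.54, 9.58, 9.24 and 9.32 in NI birds, where only NI bird 3 lay within the SA range. Its difference was -0.41 (limma adjusted p = 0.374), and its other probe set lay at 0.012. KCNJ8, the pore of the ATP-sensitive channel of vessel walls, lay at -0.15. The 12 two-pore-domain genes, which give the leak current of the resting cell, lay between -0.26 and 0.34. KCNK3, a pore closed by acid outside the cell, had 10.42, 10.27 and 10.34 in SA birds, against 9.93, 9.96, 10.20 and 10.19 in NI birds. The groups did not overlap, and the difference of 0.27 (interval 0.0078 to 0.54, limma adjusted p = 0.457) is 1.21-fold. Its second probe set lay at 0.32 and did not overlap between the groups either. KCNK7, a related gene, lay at 0.34 (limma adjusted p = 0.494) and at 0.20 without SA bird 3, and its other probe sets at -0.11 and -0.072.

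By symbol alone, 9 genes were grouped as potassium channels opened by calcium or sodium, and how each is opened was not tested. Among them KCNN2, a small-conductance channel gated by calcium, had 9.32, 9.60 and 10.24 in SA birds. In NI birds KCNN2 had 10.24, 10.03, 10.65 and 10.62. SA birds 1 and 2 lay below every NI bird and SA bird 3 within their range. The difference was -0.67 (standard error 0.23, interval -1.19 to -0.14, limma adjusted p = 0.324), and this gene had 1 probe set. KCNU1, a pore known from sperm in mammals, lay at -0.25, and KCNT1, a sodium-gated pore, at 0.11.

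Over 1 probe set was present for 59 of the 104 genes, 109 probe sets beside those used above. None of the 109 passed the test (smallest limma adjusted p = 0.180), against 1.07% of all probe sets, and 8 had an unadjusted p under 0.05, against 10.4% of all probe sets. The signs of the probe sets of a gene were mixed in 39 of the 59 genes, or 66.1%, against 62.8% of the 7096 genes with over 1 probe set. These shares are not like for like, as the median number of probe sets was 3 in the former and 2 in the latter. Of the 8 genes with an unadjusted p under 0.05, the other probe sets had the same sign throughout in CACNA2D1, KCNK3 and KCNIP1. They were of mixed or opposite sign in CLCN4, KCNJ15 and SCN3B, and KCNN2 and CACNA2D2 had no other. Probe sets of 1 gene share their birds and may share sequence, so they are not replicates.

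**Figure D4:**
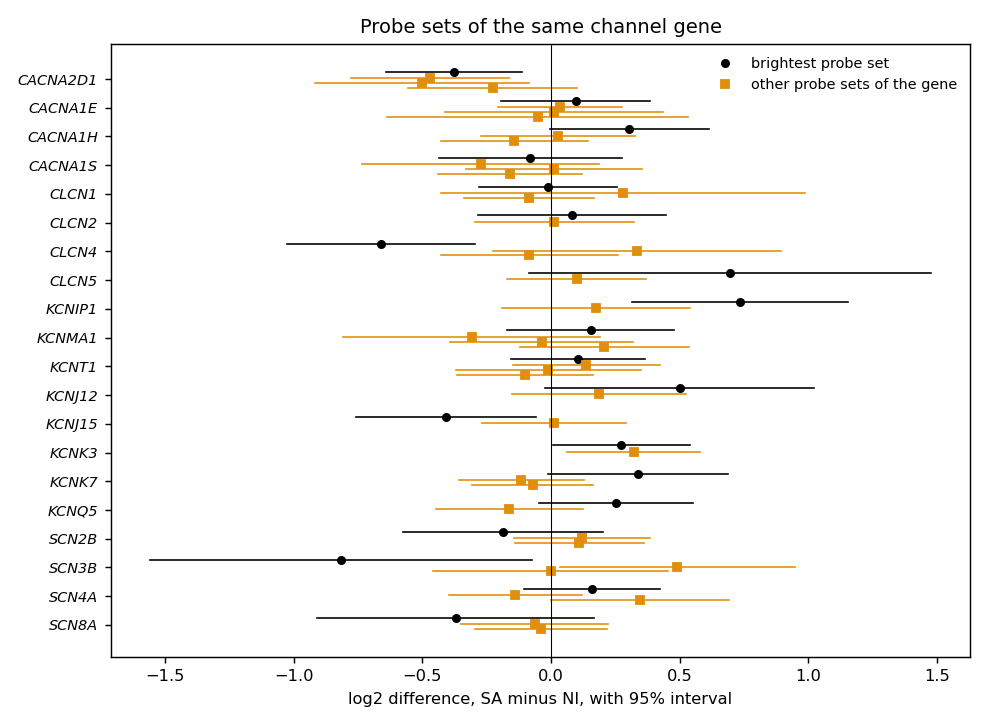
Log2 differences (SA minus NI, horizontal axis, with 95% intervals) of every probe set of the 20 named channel genes with over 1, the brightest in black and the others in orange. The 4 probe sets of CACNA2D1 all lie below 0, while those of SCN3B run from -0.82 to 0.49.

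Over the channel genes the median SD within groups was 0.199 log2 units and the median size of the difference 0.122. Over all genes these medians were 0.192 and 0.135. The SD within groups was highest in KCNMB1, the beta subunit of the large-conductance channel in smooth muscle, at 1.08 log2 units. KCNMB1 had 9.76, 8.23 and 8.26 in SA birds, against 7.52, 9.52, 8.81 and 10.34 in NI birds. KCNK2, a leak channel opened by stretch, had 10.61, 9.49 and 9.50 in SA birds, against 9.37, 9.60, 9.91 and 11.15 in NI birds. KCNK5, a leak channel opened by alkali, had 8.80, 8.28 and 8.35 in SA birds, against 7.77, 8.92, 8.73 and 9.52 in NI birds. In all 3 genes SA bird 1 was the highest of its group, NI bird 4 the highest and NI bird 1 the lowest of theirs. The haemoglobin chain HBAD had 14.42, 13.53 and 13.64 in SA birds, against 12.77, 14.29, 14.04 and 14.80 in NI birds, with the same birds at the ends. The summed level of 4 measured erythroid markers, set mostly by HBAD and HBA1, was 15.63, 15.08 and 15.18 on the log2 scale in SA birds, against 14.68, 15.55, 15.37 and 15.82 in NI birds.

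Over the 7 birds, KCNMB1 and this erythroid sum had Pearson's r = 0.981 and Spearman's rho = 1.00. For KCNK5 r was 0.969 and rho 0.964, and for KCNK2 r was 0.811 and rho 0.964. These are 3 of the 12 channel genes with the widest spread within groups, and the relation was sought after their values had been seen, so the coefficients are a description without a test. Without NI birds 1 and 4, the farthest from the median of the sum, r was 0.986 for KCNMB1, 0.939 for KCNK5 and 0.724 for KCNK2. The groups hold too few birds for r within them. KCNMB1 and KCNK5 put the birds in the order of the erythroid sum within SA and within NI, while KCNK2 did so within SA and had NI birds 2 and 3 in the other order. In the other 9 genes rho lay between -0.39 and 0.61. A rho of at least 0.9 in size was found in 4 of the 104 channel genes, or 3.85%, against 1.35% of all genes. Of these 4, KCNMB1, KCNK2 and KCNK5 are the genes that prompted the comparison, and the fourth was SCN2B. The share of 3.85% therefore holds the genes picked by their values and does not set the channel genes apart. KCNMB1, KCNK2 and KCNK5 had log2 differences of -0.30, -0.14 and -0.26 with standard errors of 0.61, 0.42 and 0.34, and the part of blood in these values was not tested.

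**Figure D5:**
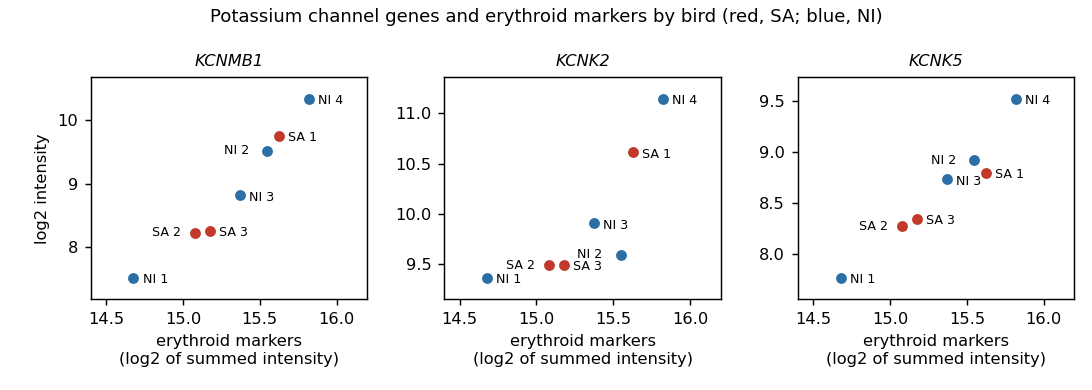
Log2 intensities of KCNMB1, KCNK2 and KCNK5 (vertical axes) against the log2 of the summed intensity of the erythroid markers (horizontal axis), with 1 labelled point per bird, SA in red and NI in blue. KCNMB1 and the erythroid sum, set mostly by HBAD and HBA1, put the 7 birds in the same order, from NI bird 1 (7.52) to NI bird 4 (10.34).

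Genes that work beside the channels were read from a list of 34, of which 22 were measured. None passed the test, 13 had a negative sign and their median was -0.076. An unadjusted p under 0.05 was found for 2 of the 22, ATP1B1 and SNTB1, where 12.4% of all genes had one. ATP1B1, the beta subunit of the sodium and potassium pump that restores the gradients after a spike, had 10.69, 9.94 and 10.21 in SA birds, against 11.31, 11.44, 11.03 and 10.71 in NI birds. No SA bird reached an NI bird, though SA bird 1 and NI bird 4 differed by little, and the difference was -0.84 (standard error 0.22, interval -1.33 to -0.35, limma adjusted p = 0.160). SNTB1, a syntrophin of the dystrophin complex that anchors channels, lay at -0.58 (limma adjusted p = 0.221). ANK3, the ankyrin that gathers sodium channels, lay at -0.41 (limma adjusted p = 0.512).

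Of 10 fibroblast markers 2 were lower and none was higher in SA, 9 had a negative sign and their median was -0.62. Their summed level was 12.10 to 13.06 in SA birds and 13.38 to 14.37 in NI birds, without overlap. Of 4 erythroid markers TFRC, the transferrin receptor, was lower in SA (-1.64, limma adjusted p = 0.0733) and none was higher. HBA1, HBAD and SLC4A1 lay at 0.045, -0.11 and -0.21 and did not pass. Among 7 adipocyte markers RBP7 was higher in SA (1.13, limma adjusted p = 0.0714) and none was lower. Of the 7, 4 had a negative sign and their median was -0.12. None of 10 endothelial, 9 leukocyte and 5 smooth muscle markers passed. The summed level of the smooth muscle markers was 13.46, 13.64 and 13.78 in SA birds, against 12.94, 13.41, 13.49 and 13.38 in NI birds. All 5 had a positive sign. This sum was set mostly by TAGLN and DES. DES, which is also a protein of skeletal muscle fibres, had the largest difference of the 5, 0.45. The summed level of the skeletal muscle fibre markers was 17.56 to 17.65 in SA birds and 17.68 to 17.74 in NI birds, without overlap. Such a sum weights each gene by the brightness of its probe. Of the 12 fibre markers 7 had a negative sign and their median was -0.093. TNNC2 and LDB3 had the lowest differences, -0.94 and -0.40. The part of these lists in the channel values was not tested.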

How the data were processed

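The authors deposited log2 intensities of 36897 probe sets on 7 Affymetrix chicken arrays. Before depositing these log2 values the authors dropped perfect-match probes that were at background on every array, kept for each probe set the single probe that ranked highest across arrays, and applied quantile normalization, with no background subtraction mentioned. Limma is named in the processing notes, without its version. Groups came from the sample labels, and symbols from the platform annotation (26108 probe sets with 1 symbol, 171 with several, 10618 with none).

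Differences (SA minus NI) were fitted over all probe sets, unfiltered, using limma 3.58.1 under R 4.3.3 (lmFit and eBayes, 5 residual and 4.34 prior degrees of freedom). The Benjamini-Hochberg adjustment covered all 36897 p-values, with a threshold of 0.10. Intervals are 95% intervals from the moderated standard errors. The code was tested on simulated data. No set test was run, and counts and medians describe the lists.

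The named genes were any past the threshold, the 2 with the smallest p of each of 11 subclasses, the measured fibre channels and the 3 brightest. Other genes named were chosen after their values were seen. The members and lists were chosen with earlier results of these data known. Alternatives covered normalization, filters on dim probe sets, the prior, array weights, sex, a replicate block, the choice of probe set and leaving out each bird. The number of arrays limits the precision.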

Additional observations from a re-analysis of the deposited data

Results flagged for a closer look

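CACNG1, the gamma subunit of the muscle calcium channel, had 1 NI bird far from the others. Its log2 intensity was 10.47 in NI bird 3, while the other NI birds lay between 11.06 and 11.17, so that the gap took up 0.85 of the whole range. Chance marks about 1 in 20 groups of 4 in this way, and 28 genes were examined. Groups of 3, such as SA, were not examined. Without NI bird 3 the difference of CACNG1 was -0.080, and it was 0.080 with all birds, and neither passed the test.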

How the results depend on the processing

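No channel gene passed under median centring, cyclic loess, repeated quantile normalization, either filter on dim probe sets, a trend or robust prior, sex as a covariate, either other choice of probe set, or an adjusted p under 0.05. With array weights 1 gene passed, CLCN4, which was lower in SA (-0.70, limma adjusted p = 0.0955), and 14 genes had an unadjusted p under 0.05. With the replicate number as a replicate block CLCN4 was again the 1 gene that passed, lower in SA (-0.69, limma adjusted p = 0.0668), and the calls over all probe sets were 624, against 394 without it, 766 with array weights and as few as 95 without NI bird 2. The labels do not say that the numbers pair the birds. Deviations of same-numbered birds correlated at 0.29, -0.026 and 0.17. SA birds 1 and 3 correlated best with the NI bird of their number, and SA bird 2 with NI bird 3. Such correlations cannot settle whether the numbers pair the birds. The adjusted p of CLCN4 lay between 0.0668 and 0.382 over its 17 alternatives. Leaving out 1 bird gave 0 to 1 genes past the threshold, 0 to 1 higher and 0 lower, and 5 to 14 at an unadjusted p under 0.05 (14 without SA bird 1, 5 without SA bird 2). With the dimmest probe set of each gene that number was 5. The share of all genes at an unadjusted p under 0.05 was not counted under these alternatives, so these counts do not set the channel genes apart.

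Leaving out 1 bird gave medians of -0.018 (without SA bird 2) to 0.047 over all channel genes and -0.069 (without NI bird 2) to 0.044 over calcium channel genes. With the dimmest probe set the median was -0.051 for calcium, -0.026 for potassium and 0.0060 for sodium channels. Under the milder filter on dim probe sets the sodium median was -0.00044 over 7 genes, and under the stricter one -0.19 over 5. CLCN1 lay at 0.0050 with array weights and 0.0031 with the replicate block, against -0.012. Leaving out 1 bird also turned the sign of values near 0, with ranges of -0.25 to 0.027 for CACNA1S, -0.080 to 0.15 for CACNG1, -0.078 to 0.062 for CLCN1, -0.046 to 0.25 for CLCN2 and -0.16 to 0.0087 for KCNJ2. Under the alternatives run on each named gene, all on its brightest probe set, no other sign turned, and CLCN4 as above and KCNIP1 without SA bird 2 alone crossed the threshold. Other probe sets of 1 gene often had the other sign, as for CACNA1H, KCNQ5, KCNJ15 and KCNK7. The cause of these changes was not tested.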

Other observations

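The birds that held the extremes of the channel genes were not spread evenly. SA bird 2 had the lowest value in 6 of the 104 genes, or 5.77%, against 15.3% of all genes, and NI bird 2 the lowest in 32, or 30.8%, against 15.5%. SA bird 2 had the highest value in 27 genes, or 26.0%, against 17.5% of all genes, and SA bird 1 in 11, or 10.6%, against 17.5%.

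A second group of potassium channel genes varied between birds in another order. KCNJ4, an inward rectifier of brain, had 9.74, 10.98 and 10.89 in SA birds, against 9.86, 10.38, 10.64 and 10.52 in NI birds. KCNE4, an accessory subunit that dampens voltage-gated pores, had 9.28, 10.30 and 10.19 in SA birds, against 8.98, 9.66, 9.89 and 9.36 in NI birds. KCNAB1, which speeds the closing of KCNA pores, had 7.13, 8.59 and 8.56 in SA birds, against 7.52, 7.93, 8.18 and 7.91 in NI birds. In all 3 genes SA bird 1 was the lowest of the SA birds, and NI bird 1 was the lowest and NI bird 3 the highest of the NI birds. These genes were picked after their values were seen. The smooth muscle markers DES, MYH11 and ACTA2 had the same birds at these ends, while TAGLN and MYLK did not. DES is also a protein of skeletal muscle fibres. The same birds were at these ends in ERG, an endothelial marker, CD74, a leukocyte marker, and TTN, a skeletal muscle fibre marker. Other channel genes, KCNE3 and KCNH8 among them, had them there too. The share of all genes with this order was not counted. The part of smooth muscle in the channel values was not tested. The dimmer probe sets of KCNE4 lay at -0.29 and -0.19 in the comparison of SA with NI, and the brightest at 0.45.

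KCNJ16, a rectifier of kidney and brain, had a second probe set with the smallest p among the dimmer probe sets (difference 0.48, limma adjusted p = 0.180), while its brightest lay at -0.23.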
